A study of Mus musculus with 18 samples.

Results

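Wild-type (WT) striatum and WT frontal cortex were compared by messenger RNA sequencing. The members are the 3 samples labelled WT striatum and the 3 labelled WT frontal cortex, that is 6 of the 18 samples of the series, chosen by genotype and tissue alone. The series held striatum, frontal cortex and hippocampus of WT mice and of Pcm1-/- mice, which carry a gene trap in the gene of a centriolar satellite protein, with 3 samples in each of the 6 groups. All 6 WT samples came from adult mice on a C57 Bl6J background, and shared their genotype, so region is the labelled difference between them. They were dissected pieces of tissue, in which fewer cells of a type and less RNA per cell cannot be told apart. The Pcm1-/- mice came from 1 gene-trap line. The study's methods describe the WT mice as littermates, and a figure legend of the study gives 3 regions per subject.

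The striatum is the input station of the basal ganglia. Nearly all of its neurons are GABAergic projection neurons, those of the direct pathway with D1 dopamine receptors, substance P and dynorphin, and those of the indirect pathway with D2 dopamine receptors, an adenosine receptor encoded by Adora2a and enkephalin. In the frontal cortex most neurons are glutamatergic pyramidal cells arranged in layers, and both regions hold GABAergic interneurons. Large cholinergic interneurons are a further class, typical of the striatum.

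Gene counts per library ran from 26535872 to 29716439, and 87.3% to 88.1% of counted reads were assigned to a gene. Levels are given as CPM, counts scaled to library totals that were adjusted by TMM factors (edgeR) across the libraries of the series. Log2 CPM, with a prior count of 2, correlated at 0.982 to 0.991 (Pearson, across genes) between libraries of the same region. Between regions the correlations were 0.935 to 0.948. By the markers of neighbouring tissue, 2 striatal libraries stood apart. WT striatum 3 held 5620.5 CPM of Ttr, the transthyretin made by the choroid plexus, against 25.3 and 25.4 in the other striatal libraries, and it had the highest summed level of 5 thalamic markers (27.8, 38.6 and 118 CPM in WT striatum 1, 2 and 3). WT striatum 1 had the highest striatal level of most markers of cortical glutamatergic neurons: the 12 stood there at a median of 3.40% of their mean in frontal cortex, against 0.752% and 1.20% in WT striatum 2 and 3. Other genes high in cortex varied: Fezf2 and Vip were also highest in WT striatum 1 among the striatal libraries, and Grm2, Kcnj6 and Adra1d were lowest there. These genes are examples, and no count over all genes high in cortex was made. The 16 dorsal forebrain factors, some of which are among the 12, stood at medians of 11.2%, 10.5% and 6.85% in WT striatum 1, 2 and 3. The source of the difference was not tested. Without WT striatum 1 and without WT striatum 3, 6742 and 7316 genes passed the test, against 7638 with all 6 libraries. The striatal libraries all came from sequencing lane 5 and the cortical ones from lanes 3, 4 and 5. Pcm1, the gene trapped in the knockout mice, measured 170.2, 150.3 and 172 CPM in WT striatum 1, 2 and 3 and 119.9, 133 and 149 CPM in WT frontal cortex 1, 2 and 3. Values listed by 3 keep that order of libraries below. For the named genes Ppp1r1b, Penk, Rasgrp2, Prdm8, Gnal, Rarb, Dlx1, Dlx6, Emx2, Syt6, Slc32a1, Gabra4, Gabra5, Chrm1, Htr1b, Adra1d and P2ry12, an exon overlaps one of a gene on the other strand. The strand setting of the counting is not given in the sources used here, so reads of such pairs cannot be told apart.

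**Figure D1:**
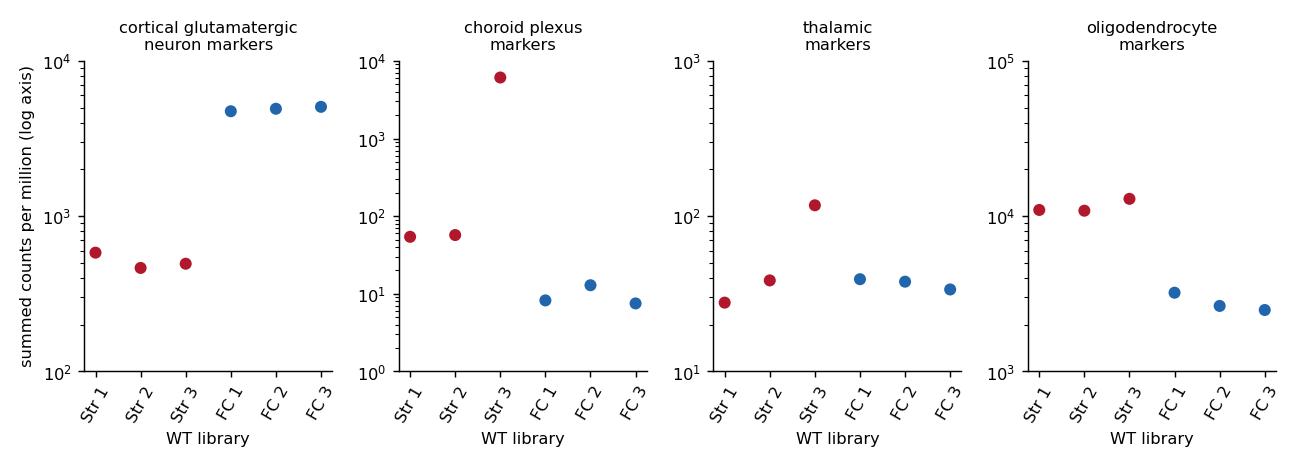
Summed CPM (log axes) of 4 marker lists in each WT library. Str is striatum (red), FC frontal cortex (blue), and each point is 1 library. WT striatum 3 lies far above the other libraries for choroid plexus and thalamic markers, and WT striatum 1 has the highest cortical marker sum of the striatal libraries.

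The regions differed in much of what they express. Of 17545 genes tested, 7638 (43.5%) passed an adjusted p of 0.05, 3800 of them (21.7%) higher and 3838 (21.9%) lower in striatum, and 8934 had an unadjusted p under 0.05. With a difference of at least 2-fold as a second condition, 1463 genes (8.34%) were higher and 1454 (8.29%) lower in striatum. The shares of 21.7% and 21.9% are the background for the counts of gene lists below. Lists and members were chosen with earlier results of these data known, so such counts are a description and not a test. At 16-fold or more, 196 were higher and 154 lower. The 3 striatal and 3 cortical values did not overlap for 54.9% of genes, which is the background for each statement below that the groups of a gene did not overlap. Log2 fold changes below are striatum over frontal cortex from edgeR, ± their SE, with n = 3 and 3. The median log2 fold change of all genes was 0.02, and the median size among called genes was 0.74. Using only the libraries of lane 5 (3 striatal, 1 cortical), all 2917 genes with at least 2-fold differences kept their direction. These libraries also served to choose the genes, so the kept direction was largely fixed in advance and does not test an effect of lane.

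**Figure D2:**
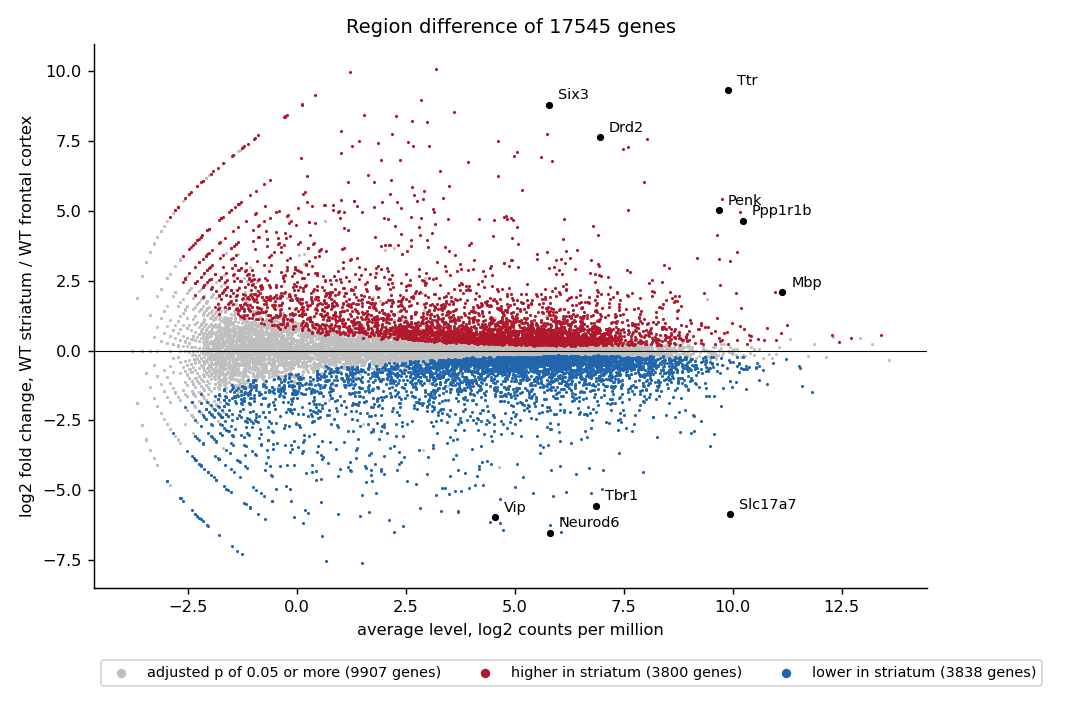
Each point is 1 of 17545 genes, with its average log2 CPM on the horizontal axis and its log2 fold change (WT striatum over WT frontal cortex) on the vertical axis. Called genes spread over both directions, with Six3, Drd2, Penk and Ttr far above 0 and Neurod6, Slc17a7, Tbr1 and Vip far below.

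The shared markers of striatal projection neurons were higher in striatum without exception: 20 of 20 rose, against 21.7% of all genes, with a median log2 fold change of 3.28, and the same 20 of 20 passed without WT striatum 1 and without WT striatum 3. Ppp1r1b (DARPP-32, which inhibits protein phosphatase 1 when dopamine receptors raise cyclic AMP) stood at 2583, 2203 and 2214 CPM in WT striatum 1, 2 and 3 and at 91.3, 100.2 and 89.2 CPM in WT frontal cortex 1, 2 and 3. The lowest striatal library thus lay far above the highest cortical one (log2 fold change 4.64 ± 0.10, adjusted p = 1.08e-07). Pde10a, which breaks down cyclic AMP and cyclic GMP, measured 2322, 2334 and 2094 CPM against 75.5, 72.6 and 68.4 CPM (log2 fold change 4.96 ± 0.090, adjusted p = 4.02e-08). Rgs9, whose product speeds the end of G protein signals, had the largest difference of the list, with 484, 469.8 and 519 CPM against 7.18, 7.69 and 7.67 CPM (log2 fold change 6.03 ± 0.087, adjusted p = 1.28e-08). Ido1, the tryptophan-degrading dioxygenase, and Rasgrp2, an exchange factor for Rap proteins, were higher at log2 fold changes of 5.89 (adjusted p = 2.59e-07) and 4.14 (adjusted p = 2.59e-07). The smallest rise was that of Ngef, a guanine nucleotide exchange factor named after its value was seen, at a log2 fold change of 0.49 (adjusted p = 0.00623).

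Genes of the direct and the indirect pathway were higher in striatum together. All 8 direct-pathway markers rose, with a median log2 fold change of 3.55, and all 5 indirect-pathway markers tested rose, with a median of 6.91. Drd1 (chr13:54051183-54055705, build GRCm38), the D1 receptor that couples to stimulatory G proteins, measured 430.3, 378 and 323 CPM in striatum and 10.3, 11.4 and 13.1 CPM in cortex. Its groups were far apart, and the fold change was 32.6 (log2 fold change 5.03 ± 0.15, adjusted p = 1.83e-07). Drd2 (chr9:49340627-49408177), the D2 receptor that couples to inhibitory G proteins, measured 251, 241 and 248 CPM against 1.44, 1.22 and 1.07 CPM, with little spread in either region and a fold change of 198 (log2 fold change 7.63 ± 0.10, adjusted p = 1.28e-08). Per length, the D1 receptor gene stood above the D2 receptor gene in frontal cortex, at 12.3 ± 1.92 against 1.87 ± 0.204 TPM (counts per exonic length, scaled to an equal sum in each library, mean ± SD, n = 3). In striatum their TPM levels were 393 ± 55.6 and 367 ± 7.82, which lay within their spread of each other.

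Among the other direct-pathway genes, Tac1, the precursor of substance P, measured 237, 230.0 and 174 CPM in striatum against 8.79, 10.3 and 10.4 CPM in cortex (log2 fold change 4.44 ± 0.14, adjusted p = 3.14e-07). Pdyn, the dynorphin precursor, differed less, at 154, 156 and 119 CPM against 39.2, 35.5 and 34.7 CPM (log2 fold change 1.97 ± 0.11, adjusted p = 4.50e-06), and so did the muscarinic M4 receptor gene Chrm4, at 145, 113 and 109 CPM against 48.04, 48.2 and 56.8 CPM (log2 fold change 1.26 ± 0.12, adjusted p = 8.61e-05). Isl1, a transcription factor needed for direct-pathway neurons, measured 16.5, 19.6 and 17.98 CPM in striatum but gave 1 read in all 3 cortical libraries together, a count ratio of 1477-fold (95% counting interval 265 to 58388). On the indirect side, Adora2a, the gene of the adenosine receptor, measured 433, 374 and 352 CPM against 2.59, 2.32 and 2.51 CPM (log2 fold change 7.29 ± 0.12, adjusted p = 2.63e-08). Gpr6, an orphan receptor of indirect-pathway neurons, measured 109.8, 95.6 and 82.1 CPM against 0.700, 0.951 and 0.737 CPM (log2 fold change 6.91 ± 0.17, adjusted p = 1.08e-07). Penk, the enkephalin precursor (chr4:4133531-4138819), measured 1668, 1476 and 1648 CPM against 50.1, 55.1 and 42.3 CPM (log2 fold change 5.02 ± 0.12, adjusted p = 1.08e-07). For each gene named here the regions did not overlap.

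**Figure D3:**
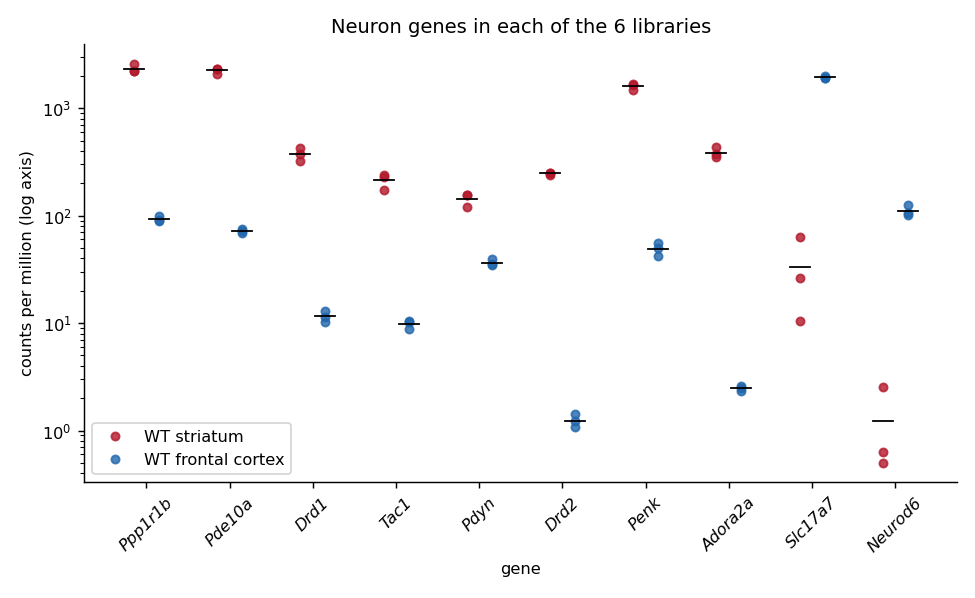
CPM (log axis) of 10 neuron genes in each WT library, striatum in red and frontal cortex in blue, with the mean as a black line. The 8 projection neuron genes on the left lie higher in all 3 striatal libraries, and the 2 cortical genes on the right lie higher in all 3 cortical libraries, with WT striatum 1 the highest striatal point for Slc17a7 and Neurod6.

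The promoters of genes with strong differences are shown because dopamine receptors act on cyclic AMP, whose nuclear signal reaches DNA through the cyclic AMP response element TGACGTCA. The windows hold the 250 bases before the start given by RefSeq (build GRCm38.p6), and capitals mark its core TGACG or its reverse complement CGTCA. Of the genes shown, 3 are higher in striatum (Gpr6 at chr10:41072291-41072540 on the minus strand, Tac1 at chr6:7554811-7555060 on the plus strand and Drd2 at chr9:49340153-49340402 on the plus strand) and 2 are higher in frontal cortex (Neurod2 at chr11:98329646-98329895 on the minus strand and Slc17a7 at chr7:45163671-45163920 on the plus strand).
Gpr6: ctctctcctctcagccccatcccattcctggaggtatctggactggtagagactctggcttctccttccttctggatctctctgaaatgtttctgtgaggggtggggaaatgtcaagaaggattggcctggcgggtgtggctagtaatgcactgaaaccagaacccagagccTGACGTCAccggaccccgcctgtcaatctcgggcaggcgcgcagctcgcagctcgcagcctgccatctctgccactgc
Tac1: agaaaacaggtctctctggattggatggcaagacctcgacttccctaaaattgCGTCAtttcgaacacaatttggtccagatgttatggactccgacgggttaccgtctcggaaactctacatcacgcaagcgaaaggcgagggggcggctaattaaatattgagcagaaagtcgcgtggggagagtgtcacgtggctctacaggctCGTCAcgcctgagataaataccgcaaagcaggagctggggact
Drd2: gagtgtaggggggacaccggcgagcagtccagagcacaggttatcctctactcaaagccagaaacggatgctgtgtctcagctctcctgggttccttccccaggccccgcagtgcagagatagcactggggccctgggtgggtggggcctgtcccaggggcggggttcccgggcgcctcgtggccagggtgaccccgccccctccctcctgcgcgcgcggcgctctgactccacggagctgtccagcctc
Neurod2: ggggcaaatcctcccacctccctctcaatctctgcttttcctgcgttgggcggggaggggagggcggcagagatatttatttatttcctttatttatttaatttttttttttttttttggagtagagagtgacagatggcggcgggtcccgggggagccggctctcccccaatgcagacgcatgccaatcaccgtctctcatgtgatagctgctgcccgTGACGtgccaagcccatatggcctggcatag
Slc17a7: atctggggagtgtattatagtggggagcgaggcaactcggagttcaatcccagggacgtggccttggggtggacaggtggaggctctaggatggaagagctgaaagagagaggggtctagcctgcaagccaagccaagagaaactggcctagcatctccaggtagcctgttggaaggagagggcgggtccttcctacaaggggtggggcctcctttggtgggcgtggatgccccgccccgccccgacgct

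The Gpr6 window held the whole element, starting 78 bases before the start. The Tac1 window held 2 cores (197 and 43 bases before the start) and the Neurod2 window 1 (31 bases before it). Neither spelling was found in the windows of Drd2 and Slc17a7. Those windows end at chr9:49340402 and chr7:45163920, before the gene positions given here from GENCODE, and the bases between are not in the windows shown. Across windows of 300 bases (250 before and 50 after the start, both strands), 28.2% of those of all tested genes held a core, as did 13.9% of those of genes at least 4-fold higher in striatum and 19.8% of those at least 4-fold lower. The full element, which contains the core, stood in 2.72%, 0.938% and 1.00% of windows. The 4-fold genes of both directions had a median of 9 CpG and a GC content of 55.7%, against 18 CpG and 60% for all tested genes. These are shares of 16261 windows of all tested genes, 533 of the higher and 499 of the lower genes, given as a description without a test, and windows of 1 gene overlap in part.

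The markers of cortical glutamatergic neurons were lower in striatum, all 12 of 12 against 21.9% of all genes, with a median log2 fold change of -5.69, or -6.80 without WT striatum 1. Slc17a7 (chr7:45163949-45176142), the vesicular glutamate transporter VGLUT1, measured 63.5, 10.5 and 26.4 CPM in WT striatum 1, 2 and 3 and 1918, 1986 and 1922 CPM in frontal cortex. All striatal values lay far below the cortical ones, with WT striatum 1 the highest of them (log2 fold change -5.86 ± 0.61, adjusted p = 1.19e-04). Tbr1, a T-box factor of deep-layer neurons, measured 10.9, 1.48 and 2.41 CPM against 240.1, 223 and 226 CPM (log2 fold change -5.55 ± 0.59, adjusted p = 1.37e-04). Neurod6, a basic helix-loop-helix factor of pyramidal cells, had the largest fall among well expressed called genes (mean log2 CPM 3 or more), at 2.54, 0.504 and 0.628 CPM against 126, 105 and 102 CPM (log2 fold change -6.51 ± 0.40, adjusted p = 6.35e-06). Each of these 3 genes had its highest striatal level in WT striatum 1, and without that library the log2 fold changes of Slc17a7, Tbr1 and Neurod6 were -6.72, -6.88 and -7.60. Slc30a3, which loads zinc into synaptic vesicles, fell by 6.48 on the log2 scale, and Rtn4rl2 (a Nogo receptor relative), Smoc2 (a matrix protein), Dkkl1, Prdm8 and Gm11549 were also among the 12 largest falls, as were Slc17a7, Neurod2, Emx1 and Vip, at log2 fold changes between -6.48 and -5.74.

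Layer markers did not move as one: 9 of 18 were lower and 6 higher in striatum. Cux2, of upper-layer neurons, measured 15.3, 15.9 and 24.4 CPM against 166, 161 and 171 CPM (log2 fold change -3.16 ± 0.17, adjusted p = 3.46e-06). Fezf2, of subcerebral projection neurons, measured 3.09, 2.16 and 2.20 CPM against 41.3, 37.6 and 37.6 CPM (log2 fold change -3.96 ± 0.14, adjusted p = 5.14e-07). The higher members included Foxp2, known in deep cortical layers and in striatal projection neurons, at 108, 110.0 and 105 CPM in striatum and 15.2, 15.8 and 17.7 CPM in cortex (log2 fold change 2.74 ± 0.079, adjusted p = 1.83e-07), Syt6 at a log2 fold change of 3.23 (adjusted p = 1.16e-07) and the calmodulin-binding Pcp4 at one of 2.10 (adjusted p = 4.34e-06).

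Transcription factors of the ventral and dorsal forebrain parted by region. Of 16 ventral factors 11 were higher and 2 lower in striatum (median 2.14), and of 16 dorsal factors 14 were lower and 1 higher (median -3.16). Six3, a homeobox factor of developing indirect-pathway neurons, measured 97.2, 113 and 118 CPM in striatum and 0.105, 0.304 and 0.332 CPM in cortex (log2 fold change 8.78 ± 0.21, adjusted p = 1.08e-07), and its antisense partner Six3os1, which overlaps it, 21.4, 24.3 and 26.2 CPM against 0.0700, 0.0381 and 0.0737 CPM. Reads of this pair, which lie on opposite strands, cannot be told apart here. The Dlx genes, which specify GABAergic neurons, were split: Dlx5 and Dlx6 were higher in striatum, at log2 fold changes of 2.06 (adjusted p = 7.12e-06) and 3.02 (adjusted p = 4.43e-07), while Dlx1 was lower at 9.37, 13.6 and 15.5 CPM against 36.7, 35.8 and 32.6 CPM (log2 fold change -1.45 ± 0.17, adjusted p = 2.23e-04). Dlx2 measured 3.93, 4.47 and 6.32 CPM against 6.37, 8.26 and 6.01 CPM and did not pass (adjusted p = 0.1005), though it did without WT striatum 3 (-0.71, adjusted p = 0.0158) and with the animal as a block (-0.50, adjusted p = 0.0101). Among dorsal factors, Emx1 was 53.3-fold higher in cortex (log2 fold change -5.74 ± 0.41, adjusted p = 1.47e-05, and -6.89 without WT striatum 1), its relative Emx2 1.76-fold (log2 fold change -0.82 ± 0.14, adjusted p = 0.00234), and the POU factor Pou3f1 was the single member higher in striatum (log2 fold change 0.85 ± 0.10, adjusted p = 3.10e-04).

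GABAergic and cholinergic genes differed in size. Of 6 genes of GABA synthesis and transport 4 were higher in striatum: the glutamate decarboxylases Gad1 (1.99-fold, adjusted p = 1.48e-04) and Gad2 (3.34-fold, adjusted p = 2.26e-06), the vesicular transporter Slc32a1 (3.52-fold, adjusted p = 3.75e-06) and the GABA-degrading transaminase Abat (2.13-fold, adjusted p = 5.81e-06). Of 6 cholinergic markers tested, 5 were higher. Chat, the enzyme that makes acetylcholine, measured 33.9, 31.3 and 25.1 CPM in striatum and 0.280, 0.190 and 0.369 CPM in cortex (log2 fold change 6.72 ± 0.22, adjusted p = 3.06e-07). Slc5a7, the choline transporter, measured 74.98, 72.6 and 64.02 CPM against 1.02, 1.22 and 1.73 CPM (log2 fold change 5.74 ± 0.17, adjusted p = 1.87e-07). Lhx8, a factor of the development of cholinergic cells, gave 3 reads over the 3 cortical libraries and 11.8, 12.7 and 12.4 CPM in striatum, a count ratio of 336-fold (95% counting interval 115 to 1630.0).

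Interneuron markers were divided between the regions, with 8 of 20 above and 8 below frontal cortex in striatum. Without WT striatum 1 the counts were 5 and 6. Vip, the peptide of disinhibitory cortical interneurons, measured 0.956, 0.576 and 0.698 CPM in striatum and 47.6, 42.7 and 48.6 CPM in cortex (log2 fold change -5.95 ± 0.16, adjusted p = 1.20e-07). Htr3a, the ion-channel serotonin receptor, measured 1.32, 1.80 and 1.43 CPM against 8.16, 10.1 and 8.85 CPM (log2 fold change -2.57 ± 0.17, adjusted p = 1.13e-05). Nkx2-1, a homeobox factor that striatal interneurons keep in adults, gave 2 reads in cortex and 9.08, 9.65 and 9.88 CPM in striatum, a count ratio of 391-fold (95% counting interval 108 to 3235), and Chodl rose by 5.24-fold (log2 fold change 2.39 ± 0.29, adjusted p = 2.95e-04). Pvalb measured 27.8, 44.99 and 69.4 CPM in striatum and 69.2, 63.4 and 33.1 CPM in cortex, and Sst 124, 131 and 136 CPM against 152, 152 and 127 CPM. The groups overlapped in both, and neither passed (adjusted p = 0.653 and 0.215), although Sst did, at a log2 fold change of -0.22, without WT frontal cortex 3.

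Of 23 neuropeptide precursors 7 were higher and 12 lower in striatum, with Penk, Tac1 and Pdyn among the former and Vip among the latter. Nts, the neurotensin precursor, measured 2.94, 4.57 and 2.48 CPM in striatum against 0.0700, 0.114 and 0.0737 CPM in cortex (log2 fold change 5.21 ± 0.39, adjusted p = 1.88e-05). Grp, the gastrin-releasing peptide precursor, went the other way, at 0.0368, 0.180 and 0.105 CPM against 5.53, 6.05 and 6.60 CPM (log2 fold change -5.76 ± 0.33, adjusted p = 4.67e-06).

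Of 12 genes of dopamine reception and handling 6 were higher in striatum. Beside Drd1 and Drd2 these included Drd3, the D3 receptor, with 1.14, 1.33 and 0.977 CPM in striatum and 1 read in cortex, a count ratio of 94.1-fold (95% counting interval 16.5 to 3755), and Ddc, the decarboxylase of dopamine synthesis, at a log2 fold change of 1.32 (adjusted p = 3.03e-04). Drd4 measured 0.147, 0.324 and 0.279 CPM against 0.210, 0.381 and 0.479 CPM and did not pass (adjusted p = 0.441). Of 12 serotonin receptors tested (2 listed ones had too few counts) 5 were higher and 7 lower. Htr1b and Htr1d, receptors often placed on axon terminals, measured 19.4, 19.8 and 16.7 CPM and 13.9, 11.7 and 13.4 CPM in striatum against 2.28, 2.25 and 2.43 CPM and 0.210, 0.228 and 0.516 CPM in cortex (log2 fold changes 3.00 and 5.34, adjusted p = 8.15e-07 and 2.83e-06). Htr1a went the other way, at 3.01, 4.32 and 3.18 CPM against 25.3, 25.9 and 23.9 CPM (log2 fold change -2.83 ± 0.14, adjusted p = 2.53e-06), and Htr2a, the receptor of cortical pyramidal cells, was 1.98-fold higher in cortex (adjusted p = 0.00135). Htr2c, which the choroid plexus also expresses strongly, measured 55.8, 56.4 and 127 CPM in striatum and 27.3, 26.9 and 40.6 CPM in cortex, with log2 fold changes of 1.34 with all libraries and 0.83 without WT striatum 3 (adjusted p = 0.0119 and 0.00551).

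Of 9 adrenergic receptors 6 were lower in striatum and 2 higher. Adra1d and Adra1b, which couple to phospholipase C, measured 0.882, 2.70 and 3.80 CPM and 2.79, 3.31 and 6.67 CPM in striatum against 45.9, 39.5 and 39.1 CPM and 41.6, 44.2 and 35.8 CPM in cortex (log2 fold changes -4.06 and -3.24, adjusted p = 5.58e-05 and 4.85e-05). Adra2c, an inhibitory receptor, was higher, at 86.05, 80.6 and 64.9 CPM against 21.8, 20.6 and 22.8 CPM (log2 fold change 1.83 ± 0.11, adjusted p = 6.06e-06). Among 14 acetylcholine receptors 4 were higher and 6 lower, with Chrm4 on the striatal side, and the muscarinic receptors Chrm3 and Chrm1 and the nicotinic subunit Chrnb3 on the cortical side, at log2 fold changes of -2.62, -0.53 and -5.41 (adjusted p = 1.72e-06, 0.00370 and 9.37e-06). Of 6 opioid and cannabinoid receptors 4 were higher, among them Oprk1, the dynorphin receptor, at 34.4, 23.99 and 31.5 CPM against 4.10, 5.59 and 7.74 CPM (log2 fold change 2.37 ± 0.23, adjusted p = 8.79e-05), and the cannabinoid receptor Cnr1 at a log2 fold change of 0.84 (adjusted p = 0.00221). Oprl1, the nociceptin receptor, was lower at a log2 fold change of -0.83 (adjusted p = 3.30e-04).

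Enzymes that make and remove cyclic nucleotides moved in both directions. Of 9 adenylyl cyclases 2 were higher, a share near the 21.7% of all genes, and 4 lower (21.9% of all genes), or 6 lower with the animal as a block. Adcy5, the main striatal cyclase, measured 2036, 1752 and 1539.9 CPM in striatum and 195, 182 and 203 CPM in cortex (log2 fold change 3.20 ± 0.12, adjusted p = 5.16e-07), while the calmodulin-activated Adcy1 measured 392, 315 and 326 CPM against 1342, 1419.6 and 1312 CPM (log2 fold change -1.98 ± 0.10, adjusted p = 2.31e-06). Of 19 phosphodiesterases 10 were higher and 7 lower. Pde1b and Pde1c, which calcium and calmodulin activate, and Pde7b, specific for cyclic AMP, were higher at log2 fold changes of 3.26 (adjusted p = 1.16e-07), 3.00 (adjusted p = 2.27e-06) and 2.81 (adjusted p = 2.10e-07). Pde1a, of the same calmodulin-activated family, was lower, at 44.99, 55.7 and 42.4 CPM against 306, 332 and 343 CPM (log2 fold change -2.78 ± 0.11, adjusted p = 8.22e-07). Of 44 G protein and RGS genes 21 were higher and 16 lower. Gnal, which couples striatal dopamine D1 and adenosine receptors to the cyclase, measured 1095, 1027 and 1028 CPM against 251, 255 and 261 CPM (log2 fold change 2.04 ± 0.069, adjusted p = 3.81e-07). Gng7, the gamma subunit known to pair with it, measured 1696, 1595 and 1283 CPM against 89.2, 86.1 and 89.2 CPM (log2 fold change 4.11 ± 0.12, adjusted p = 1.83e-07). Gng2 was lower at a log2 fold change of -1.86 (adjusted p = 6.07e-06).

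Of 11 AMPA and NMDA receptor genes 2 were higher, a share near the background, and 5 lower. The largest difference was that of the NMDA receptor subunit gene Grin3b, which overlaps a gene on the other strand and had few reads, at 0.478, 0.576 and 0.454 CPM against 0.105, 0.114 and 0 CPM (log2 fold change 2.71 ± 0.63, adjusted p = 0.00876). Gria1 was 1.43-fold higher in striatum (adjusted p = 0.00206), Gria3 1.83-fold lower (adjusted p = 6.11e-05) and Grin3a 2.27-fold lower (adjusted p = 1.04e-04). Gria2 measured 667, 699 and 555.5 CPM against 623, 623 and 724 CPM and its groups overlapped (adjusted p = 0.828). Of 12 kainate and metabotropic receptor genes tested (1 had too few counts) 5 were higher and 3 lower, with Grm4 and Grm2 at the extremes. Grm4, a presynaptic receptor, measured 132, 120.3 and 102 CPM against 28.9, 25.04 and 26.1 CPM (log2 fold change 2.15 ± 0.11, adjusted p = 2.26e-06). Grm2, also presynaptic, measured 1.91, 2.31 and 3.07 CPM against 81.3, 75.9 and 93.8 CPM (log2 fold change -5.10 ± 0.17, adjusted p = 3.28e-07). Of 14 GABA-A subunits tested (1 had too few counts) 6 were higher and 5 lower. Gabrq measured 1.62, 4.03 and 2.58 CPM against 0.945, 0.647 and 1.03 CPM (log2 fold change 1.65 ± 0.36, adjusted p = 0.00668). Gabre measured 0.551, 1.51 and 0.384 CPM against 0.175, 0.190 and 0.332 CPM (log2 fold change 1.79 ± 0.60, adjusted p = 0.0399), a call that was lost without WT striatum 2 (log2 fold change 0.99) and without each of WT frontal cortex 1, 2 and 3 (1.62, 1.68 and 2.14). Gabra4 was 1.66-fold higher in striatum (adjusted p = 3.33e-04), and the alpha subunit genes Gabra3 and Gabra5 were lower at log2 fold changes of -2.14 (adjusted p = 3.46e-06) and -1.93 (adjusted p = 2.18e-05).

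Of 55 potassium channel genes 32 were lower in striatum, against 21.9% of all genes, and 15 higher, against 21.7% (median -0.67, 0.02 for all genes). The inward rectifier Kcnj2, which holds projection neurons at rest, measured 91.4, 87.4 and 87.3 CPM in striatum and 25.6, 22.4 and 22.4 CPM in cortex (log2 fold change 1.92 ± 0.074, adjusted p = 6.61e-07). Kcna4, an A-type channel, and Kcnab1, an auxiliary subunit, were higher at log2 fold changes of 2.32 (adjusted p = 1.20e-06) and 2.46 (adjusted p = 6.92e-07). Kcnj6, a G protein-gated rectifier, measured 1.47, 1.84 and 2.09 CPM against 30.4, 31.9 and 40.7 CPM (log2 fold change -4.25 ± 0.18, adjusted p = 8.56e-07). The leak channel Kcnk4 measured 0.735, 0.540 and 1.89 CPM against 15.9, 15.4 and 13.7 CPM (log2 fold change -3.82 ± 0.37, adjusted p = 8.46e-05).

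Of 17 retinoic acid pathway genes 8 were higher (11 with the animal as a block), against 21.7% of all genes, and 4 lower, a share near the 21.9% of all genes. The receptors Rarb and Rxrg measured 132, 137 and 119 CPM and 142, 139.8 and 123 CPM in striatum against 7.95, 7.88 and 8.85 CPM and 5.01, 3.92 and 6.64 CPM in cortex (log2 fold changes 3.98 and 4.70, adjusted p = 1.08e-07 and 5.05e-07). The binding protein Crabp1 measured 5.84, 6.88 and 6.35 CPM against 0.385, 0.266 and 0.479 CPM (log2 fold change 4.06 ± 0.23, adjusted p = 4.08e-06). Rara, another receptor, and Aldh1a3, a synthesizing enzyme, were lower at log2 fold changes of -1.47 (adjusted p = 7.33e-05) and -2.33 (adjusted p = 5.11e-04).

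Among non-neuronal lists, oligodendrocyte and microglial markers had a share of calls above the 43.5% of all genes. Vascular and blood markers had one below it, as a description without a test. Of 14 oligodendrocyte markers 13 were higher in striatum (median 1.98), with summed levels of 10967, 10846 and 12931 CPM in striatum against 3215, 2642 and 2488 CPM in cortex. Mbp, a main protein of myelin, measured 3690.0, 3584 and 3704 CPM in striatum against 1088, 787 and 718 CPM in cortex (log2 fold change 2.09 ± 0.15, adjusted p = 1.37e-05). The remaining member, Enpp2, which the choroid plexus also makes, measured 345, 354 and 2511 CPM against 315, 297 and 283 CPM (adjusted p = 0.0685) and is named here after its value was seen. All 14 were higher without WT striatum 3, and also without WT striatum 1. Of 8 precursor markers 4 were higher and 0 lower, a share of calls near the 43.5% of all genes. Pdgfra measured 69.5, 65.1 and 65.3 CPM against 62.5, 61.3 and 68.2 CPM (adjusted p = 0.510). Cspg4 and Gpr17 did not pass either (adjusted p = 0.788 and 0.754). Of 12 microglial markers 9 were higher (median 0.61), for example C1qa, a complement component, at 95.5, 123 and 73.8 CPM against 63.9, 45.1 and 46.8 CPM (log2 fold change 0.91 ± 0.20, adjusted p = 0.00607), while P2ry12 and Tmem119 did not pass (adjusted p = 0.313 and 0.456). Of 14 astrocyte markers 4 were higher and 1 lower, a share of calls below that of all genes. With the animal as a block 5 were higher and 6 lower, a share above the 9042 of 17545 genes called in that fit. Gfap, the astrocytic filament protein, measured 352, 736 and 299.99 CPM against 153, 77.4 and 84.98 CPM (log2 fold change 2.14 ± 0.38, adjusted p = 0.00237). Of 16 vascular markers 2 passed, both higher, and both calls were lost without WT striatum 1. The 5 blood markers did not pass, at log2 fold changes between -0.06 and 0.18.

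Ependymal markers were higher in striatum with and without WT striatum 3, whereas the size of the choroid plexus difference depended on it. Of 10 ependymal markers 9 were higher in striatum, with summed levels of 38.4, 54.5 and 90.2 CPM against 14.3, 13.4 and 13.5 CPM, and 9 passed without WT striatum 3. Foxj1, the master regulator of motile cilia, measured 14.1, 24.3 and 32.9 CPM against 4.34, 2.66 and 2.51 CPM (log2 fold change 2.91 ± 0.34, adjusted p = 2.23e-04). Of 8 choroid plexus markers 6 were higher (median 5.27), with summed levels of 54.3, 57.1 and 6108 CPM in striatum and 8.23, 12.9 and 7.52 CPM in cortex. Without WT striatum 3 the median was 1.18, 5 were higher and 1 lower, and Ttr, whose log2 fold change was 9.30 ± 2.42 with all libraries (adjusted p = 0.0150), stood at 3.08 (adjusted p = 0.00128). The Ttr call was lost without WT frontal cortex 1 and without WT frontal cortex 3 (log2 fold changes 8.97 and 8.99). Of 5 thalamic markers 2 were higher, and without WT striatum 3, 2 were higher and 2 lower. The thalamic marker Slc17a6, the glutamate transporter VGLUT2, measured 5.07, 5.76 and 28.2 CPM in striatum and 13.9, 14.2 and 9.29 CPM in cortex (adjusted p = 0.941), and without WT striatum 3 it was lower in striatum at -1.20 (adjusted p = 0.00219).

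**Figure D4:**
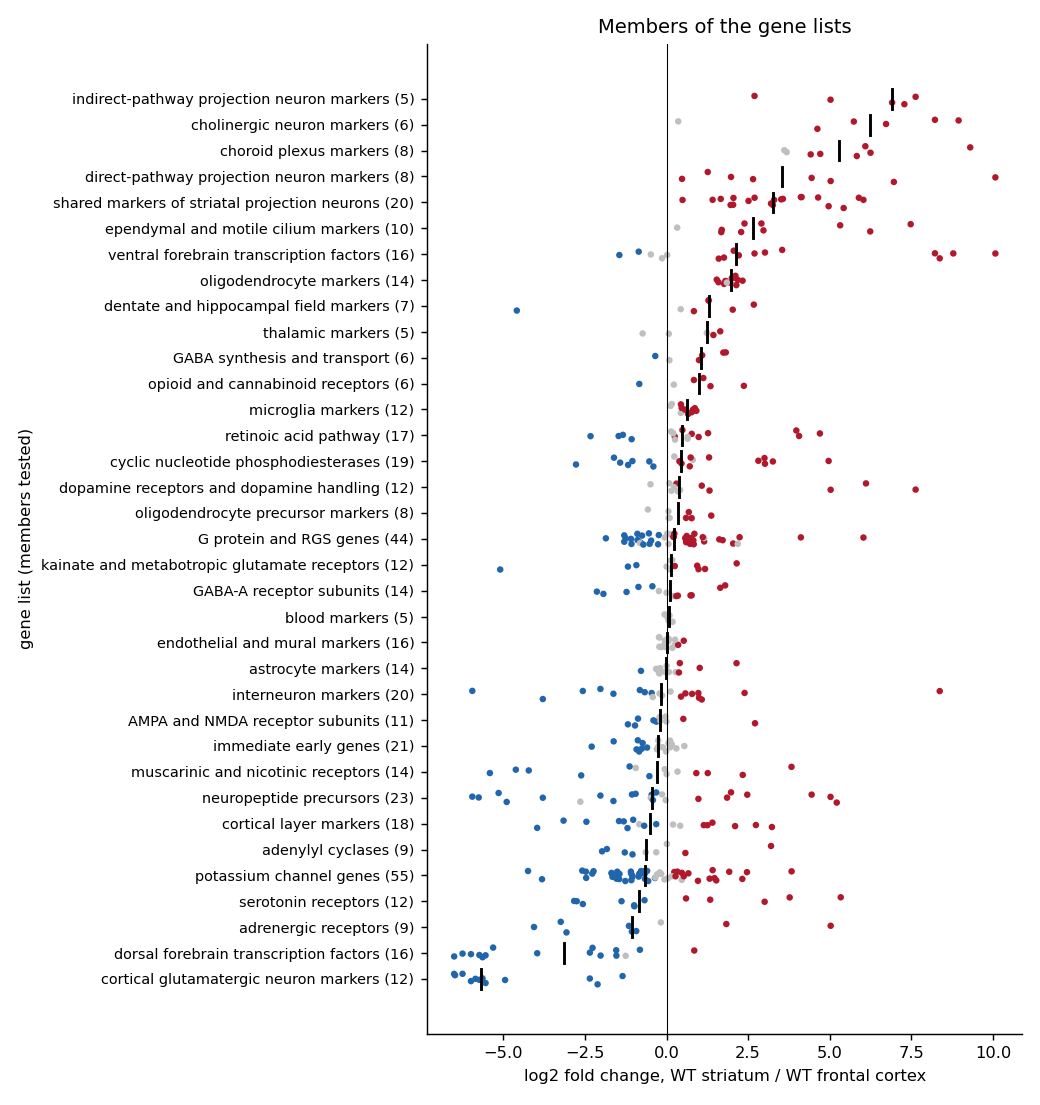
Log2 fold change (WT striatum over WT frontal cortex) of each tested member of 35 gene lists, ordered by their median (black line). Red points passed as higher and blue as lower in striatum, grey points did not pass. Projection neuron and cholinergic lists lie wholly to the right of 0 (1 cholinergic point is grey), cortical glutamatergic markers wholly to the left, and receptor and channel lists on both sides.

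The 12 largest rises at that level of expression included 7 outside the lists, Six3os1 and those that follow. Sh3rf2, a ubiquitin ligase with SH3 domains, measured 116, 109 and 96.2 CPM in striatum and 0.350, 0.685 and 0.479 CPM in cortex (log2 fold change 7.73 ± 0.17, adjusted p = 1.08e-07). Syndig1l, a transmembrane protein also known as capucin, measured 562, 553 and 460.4 CPM against 3.96, 1.98 and 2.43 CPM (log2 fold change 7.55 ± 0.23, adjusted p = 2.56e-07), and Lrrc10b 448, 364 and 256 CPM against 2.03, 2.09 and 3.13 CPM (log2 fold change 7.20 ± 0.28, adjusted p = 6.61e-07). Gpx6, of the glutathione peroxidase family, Slc10a4, a vesicular transporter of monoaminergic and cholinergic terminals, and Serpina9, a protease inhibitor, had log2 fold changes of 7.48 (adjusted p = 1.33e-06), 7.31 (adjusted p = 6.91e-07) and 7.10 (adjusted p = 1.08e-07). The 3 striatal values lay above the 3 cortical values in each.

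Levels per length placed these genes among all 15415 protein-coding genes tested outside the mitochondrial genome. Penk ranked 2 and Ppp1r1b ranked 5 by TPM in striatum, and 1455 and 1362 in frontal cortex. Slc17a7 ranked 36 in frontal cortex and 6030 in striatum.

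WT hippocampus, with 3 libraries fitted together with the 6, gave the level of another region. The striatal and cortical comparisons with hippocampus share its libraries, so values are given side by side. Drd2 measured 247 ± 5.21 CPM in striatum, 1.24 ± 0.184 in frontal cortex and 4.52 ± 0.562 in hippocampus (mean ± SD, n = 3 each), and Ppp1r1b 2333 ± 216, 93.5 ± 5.84 and 78.2 ± 12.96 CPM, so striatum was the region apart for both. For Slc17a7 the values were 33.5 ± 27.2, 1942 ± 37.9 and 1455 ± 248.8 CPM, with striatum again apart, at log2 fold changes against hippocampus of -5.44 for striatum (adjusted p = 3.04e-05) and 0.42 for cortex (adjusted p = 0.525). Vip instead set frontal cortex apart, at 0.743 ± 0.194, 46.3 ± 3.20 and 5.99 ± 1.98 CPM. Mbp was lowest in frontal cortex, at 864 ± 197 CPM against 3659 ± 65.8 in striatum and 3014 ± 1085 in hippocampus.

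The region difference was measured again in Pcm1-/- mice, in 6 other libraries from other animals. There 10218 genes (58.2%) passed between striatum and frontal cortex, 5105 higher and 5113 lower. Of the 2917 WT genes with at least 2-fold differences, 2907 had the same direction in Pcm1-/- mice, 2744 (94.1%) passed in that direction and none passed in the opposite one. In turn, 84.8% of the 3353 Pcm1-/- genes with at least 2-fold differences were WT calls of the same direction. Drd2, Penk and Ppp1r1b had log2 fold changes of 7.53, 4.30 and 4.74 in Pcm1-/- mice, beside 7.63, 5.02 and 4.64 in WT. Slc17a7 was at -7.50, beside -5.86 in WT (-6.72 without WT striatum 1), and Ttr at 5.75, beside 9.30 in WT (3.08 without WT striatum 3). The choroid plexus list had a median of 1.87 there. A test of the difference between the genotypes' region effects called 1 gene (0.0057%), Sel1l3, with 1278 genes at an unadjusted p under 0.05. With the animal as a block 13 genes were called, and by DESeq2 106, but 0 with lane as a covariate and 0 with a block by title numbers. With 1 library left out the count ranged from 0 to 3 and was 0 without WT striatum 3, without WT frontal cortex 1 or 2 and without any single Pcm1-/- library. Sel1l3 is named after its value was seen.

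**Figure D5:**
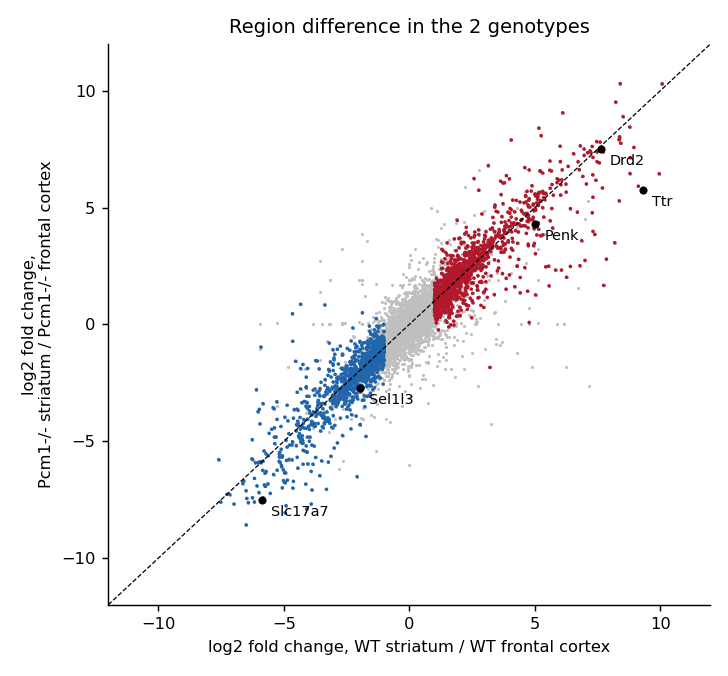
Log2 fold change of striatum over frontal cortex in WT mice (horizontal) and in Pcm1-/- mice (vertical) for 17545 genes, with genes called at 2-fold or more in WT in colour and equal values on the dashed line. Nearly all coloured genes lie in the same quadrant in both genotypes, and Ttr lies below the line.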

How the data were processed

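The 18 deposited tables hold raw read counts per gene, as the authors made them. Per the methods and labels, RNA was made into libraries with KAPA stranded mRNA-seq kits, reads were trimmed with Trim Galore and Cutadapt (reads of at least 20 bases kept) and aligned with STAR to GRCm38, Ensembl release 73, and uniquely placed reads were counted with HTSeq. Tool versions and the strand setting are not given in the sources used here. Between 87.3% and 88.1% of counted reads in the 6 libraries were assigned to genes, and rows that name no gene were left out. Their depth of 26535872 to 29716439 counts limits precision for genes with few reads, and counting intervals (exact, 95%) cover counting error only.

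The 3 WT striatum and 3 WT frontal cortex libraries were compared with edgeR 4.0.16 (limma 3.58.1, R 4.3.3): TMM factors, quasi-likelihood F test, no covariate, and p-values adjusted by Benjamini-Hochberg across 17545 genes, each of which reached 10 counts in some library of the series. A call is an adjusted p under 0.05. The code was tested on simulated data. DESeq2 1.42.0, other normalizations, filters, library sets, blocks and omitted libraries were tried as alternatives. Tables and plots were made with Python 3.11.15 (matplotlib 3.10.9, scipy 1.17.1, pandas 2.3.3 and numpy 2.4.6).

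Named genes were the 12 largest rises and falls among called genes whose mean log2 CPM (edgeR) was 3 or more and whose groups did not overlap, and from each of 35 lists the first 4 members and up to 2 more called members per direction with the largest differences. Members and lists were chosen with earlier results of these data known. Pcm1, Sel1l3, Grik1, Ngef and Enpp2 were named outside that rule after their values were seen. Of 476 listed genes, 3 (Gpr52, Pde2a and Slc18a3) were not analysed here, 4 (Htr2b, Htr3b, Grm6 and Gabra6) did not pass the filter on low counts, and values of some listed genes are not reported here. Gene positions are from GENCODE M21 (GRCm38), and promoter windows from RefSeq (GRCm38.p6), found for 12783 of 17545 genes. TPM used exonic lengths from that annotation.

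Pairing was checked by correlating, across genes, deviations of striatal and cortical libraries from their group means. Animal numbers in the deposited file names pair striatum 1, 2 and 3 with frontal cortex 3, 1 and 2, at correlations of 0.263, 0.327 and 0.324, while libraries with the same title number gave -0.103, -0.270 and -0.158. The animals therefore pair the libraries and the title numbers do not. The fit without a block is the main one because the study's methods name no block, and values with the animal as a block are given where they change a call or a count by over 1.5 times. By those names the 3 samples of a group came from 3 mice. Y-linked genes reached 3836 and 2988 counts in striatum 3 and frontal cortex 2, which are of 1 mouse, and at most 5 in the others.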

Additional observations from a re-analysis of the deposited data

Results flagged for a closer look

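Sel1l3 is listed because its region difference differed between the genotypes by a test of that difference. It measured 20.4, 19.6 and 20.7 CPM in WT striatum and 80.6, 81.6 and 73 CPM in WT frontal cortex, a log2 fold change of -1.95 ± 0.071. In Pcm1-/- mice the log2 fold change was -2.71, and the difference in 1 fit of all 12 libraries was -0.749 (Pcm1-/- minus WT, edgeR adjusted p = 0.0333). It lay lower in striatum in both genotypes. No gene was called with lane as a covariate, with a block by title numbers, without WT striatum 3, without WT frontal cortex 1 or 2, or without any single Pcm1-/- library, so the call was lost in those fits. Groups of 3 are too small for the check of single samples far from the others, so none was made.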

How the results depend on the processing

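The calls between WT striatum and WT frontal cortex stayed within 1.5 times of 7638 genes, and of 2917 genes with at least 2-fold differences, under most alternatives. With 1 library left out they ranged from 5962 to 7316 and from 2583 to 2911. Using lane 5 only, which leaves 1 cortical library assumed to vary like the striatal ones, 4137 genes passed. Testing against a 2-fold change (glmTreat) called 1536 genes, and a 4-fold limit left 1193. With a replicate block by the animals in the file names, 9042 genes passed (3087 at 2-fold), and with a block by the numbers in the titles, whose libraries are not from 1 animal, 6202 (2741 at 2-fold). The animal block moved the counts of astrocyte markers and immediate early genes, given where they are described, and added 1 lower thalamic and 1 lower oligodendrocyte precursor marker. It moved the counts of other lists by at most 1.5 times. Among genes described here it changed the call of Dlx2. In Pcm1-/- mice 8988 to 9899 genes passed with 1 library left out, and 10565 with the replicate block. The 1 gene whose region effect differed between genotypes became 0 with lane as a covariate, 0 with a block by title numbers, 13 with the animal block and 106 with DESeq2, which gave no adjusted p for 6149 genes. With 1 library left out it ranged from 0 to 3. The cause was not tested.

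Of 200 called named genes, 155 kept call and direction in each of 19 alternatives. Of 4328 alternative values of the 228 named genes, 163 lost the call, 40 of them in lane 5 only, 20 gained it and 1 turned, Slc17a6 at -1.20 without WT striatum replicate 3 (its range with 1 library left out reached 0.44). The medians of 13 lists moved by more than their spread in some alternative. Depth limits genes such as Drd4, Drd3 and Isl1, with few reads in a region.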

Other observations

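Of 21 immediate early genes, which neuronal activity induces, 8 were lower in WT striatum, against 21.9% of all genes, and the median log2 fold change stood at -0.25, and 2 were higher and 12 lower with the animal as a replicate block. The share called in either direction was below the 43.5% of all genes without the block, and above the 9042 of 17545 genes called with it. Without WT striatum 3, 2 were higher and 9 lower. Fos measured 16.6, 25.7 and 24.5 CPM in striatum and 41.3, 43.5 and 41.9 CPM in frontal cortex (log2 fold change -0.92 ± 0.15, adjusted p = 0.00154), and Arc, a synaptic protein of active neurons, 168, 243 and 188 CPM against 368, 336 and 295 CPM (log2 fold change -0.73 ± 0.14, adjusted p = 0.00341). In Pcm1-/- mice 7 were higher and 8 lower, with a median of 0.01.

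Markers of the dentate gyrus and hippocampal fields were higher in striatum for 5 of 7 genes, and 1 was lower. Prox1, a homeobox factor of granule cells, measured 32.6, 35.1 and 47.6 CPM against 15.5, 16.1 and 15.7 CPM (log2 fold change 1.29 ± 0.14, adjusted p = 1.70e-04). WT hippocampus held 162 ± 33.5 CPM of it (mean ± SD, n = 3). An exon of Prox1 overlaps a gene on the other strand, whose reads cannot be told apart here.

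Grik1, a kainate receptor gene named after its values were seen, measured 6.58, 8.54 and 9.42 CPM in WT striatum and 7.32, 8.10 and 9.18 CPM in WT frontal cortex, a log2 fold change of -0.00. In Pcm1-/- mice it was -1.52 (adjusted p = 7.11e-06), and the difference between genotypes did not pass (adjusted p = 0.104).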
